A study of Mus musculus with 9 samples.

Results

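Betaine treatment of mice heterozygous for SAHH was described by setting the 3 libraries labelled SAHH-het+betaine against the 3 libraries labelled SAHH-het, 6 of the 9 RNA-seq libraries of the study. All 54532 genes of the table were eligible, and the 15304 whose mean over these 6 libraries reached 0.5 FPKM were compared. FPKM is the number of sequenced fragments per length of exon and per total of fragments in the library, so it can be compared between genes. Every mouse was a C57BL/6 animal aged 24 weeks by the labels, the tissue was vascular tissue, and all groups carried the ApoE-/- background, which makes mice prone to atherosclerosis. The SAHH-het group had the genotype ApoE-/- with SAHH+/-, and the SAHH-het+betaine group had this genotype and received betaine. The 3 SAHH-WT libraries, ApoE-/- with wild-type SAHH, enter no test and are quoted only as values beside the others. The sources used here do not give the dose, route or length of the betaine treatment, the vessel taken or how either allele was made. Nothing in the labels ties the libraries of a group to separate animals, so p-values measure only the spread between these libraries, which may be technical.

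SAHH, encoded by Ahcy, splits S-adenosylhomocysteine, the product left after every methyl transfer from S-adenosylmethionine, into homocysteine and adenosine. S-adenosylhomocysteine inhibits most methyltransferases, so the enzyme keeps methylation running. Homocysteine is turned back into methionine either with a folate methyl group or, mainly in liver and kidney, with a methyl group from betaine through the enzyme Bhmt. High homocysteine is associated with vascular disease, and betaine is used as a homocysteine-lowering methyl donor.

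The genotype labels were checked first with the 2 genes they name. Ahcy (ENSMUSG00000027597, protein-coding, GRCm38 chromosome 2, 155059310 to 155074497, minus strand) measured 3.48, 3.89 and 4.75 FPKM in libraries carrying the SAHH-het label, against 7.66, 9.70 and 8.63 FPKM where the label was SAHH-het+betaine. The SAHH-WT libraries measured 11.5, 7.17 and 7.98 FPKM. The groups SAHH-het and SAHH-het+betaine did not overlap, and the mean of SAHH-het+betaine was 0.973 of the SAHH-WT mean while that of SAHH-het was 0.454 of it. The log2 difference of SAHH-het+betaine minus SAHH-het was 1.02 (95% interval 0.59 to 1.44, limma adjusted p = 0.359), and a two-sided exact permutation test gave p = 0.1, the smallest that 3 libraries against 3 allow. The Ahcy values of the libraries labelled SAHH-het+betaine lay within the range of SAHH-WT, although they carry the heterozygous label.

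Apoe (ENSMUSG00000002985, protein-coding, chromosome 7, 19696109 to 19699188, minus strand) encodes the apolipoprotein through which remnant lipoproteins are cleared. It measured 149, 223 and 225 FPKM under the SAHH-het label, against 5.51, 8.88 and 7.32 FPKM under the SAHH-het+betaine label. The SAHH-WT libraries were at 2.91, 4.35 and 6.11 FPKM. Even the lowest of the SAHH-het values was 16.8 times the highest SAHH-het+betaine value. The Apoe level of the libraries labelled SAHH-het goes against the ApoE-/- label that all groups share, though a value per gene does not show which exons the reads cover. A difference in genotype and an effect of betaine cannot be told apart in any result below, since the same 3 libraries carry both the betaine label and the low Apoe level. For short, SAHH-het and SAHH-het+betaine (also "with betaine") below stand for the libraries so labelled.

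The 6 libraries held 15911789 to 17381974 fragments, as worked out from the step between neighbouring FPKM values. They were not uniform in tissue within a group. Smooth muscle genes were present in all 6, with Myh11, the smooth muscle myosin, between 8.23 and 24.2 FPKM. Brown fat was present too, with the uncoupling protein gene Ucp1 between 1600 and 5768 FPKM. SAHH-het 2 stood apart from the other 5 libraries on the second principal component (27.8% of the variance), with a score of -77.9 against 8.96 to 24.4. Genes of skeletal and heart muscle summed to 9769 FPKM in SAHH-het 1 and to 62.4 to 1934 FPKM in the other 5. Lymphocyte genes were highest in SAHH-het+betaine 1. For a list whose median moved by over 1.5 times or turned its sign when 1 library was left out, the lowest and highest of the 6 such medians follow it as "from" and "to", each with the library left out.

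Across all genes few differences were larger than the spread between libraries. By limma 3 of 15304 genes passed at an adjusted p under 0.05, which is 0.0196%, 1 higher (0.00653%) and 2 lower (0.0131%) in SAHH-het+betaine. The genes that fell were Apoe and the mitochondrial tRNA gene mt-Tg, and the gene that rose was the immunoglobulin segment Ighv1-63. Without adjustment, 1331 genes (8.7%) had a p under 0.05, of which 624 were higher (4.08%) and 707 lower (4.62%). With TPM rescaling, which divides each library by its FPKM sum, 29.4% of the genes under that p were higher, against 46.9% without it. In 1245 genes (8.14%) every SAHH-het+betaine library lay above every SAHH-het library, and in 1279 (8.36%) every one lay below. The median log2 difference over all genes was -0.01, with 7449 genes above 0 and 7855 below. These shares are the background for every count of genes below.

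**Figure D1:**
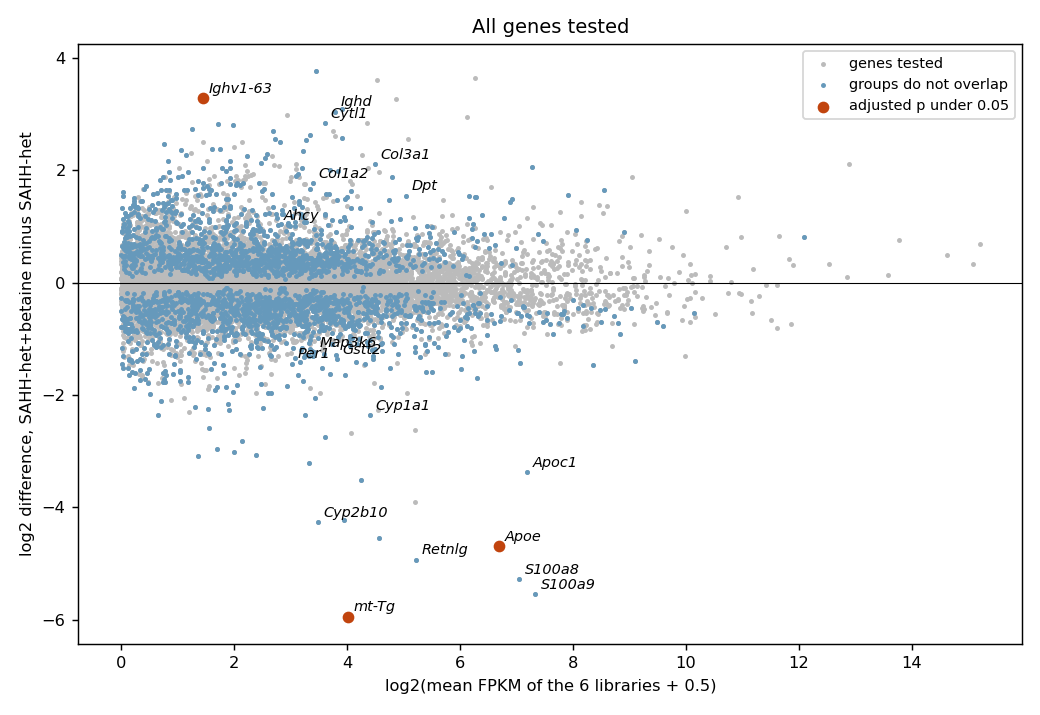
Log2 difference of SAHH-het+betaine minus SAHH-het (vertical axis) against the log2 of the mean FPKM plus 0.5 over the 6 libraries (horizontal axis) for the 15304 genes tested. Blue points are genes whose groups do not overlap and red points the 3 genes with an adjusted p under 0.05, Apoe and mt-Tg at the bottom and Ighv1-63 at the top left.

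Apoe fell from a SAHH-het mean of 199 ± 43.4 FPKM to 7.23 ± 1.69 FPKM with betaine (mean ± SD, n = 3 each), a 27.5-fold lower mean. Its log2 difference was -4.69 (SE 0.26, limma adjusted p = 0.00544). It remained past the threshold in 12 of 12 other settings of the processing, but in 3 of 6 fits that left out 1 library. It missed the threshold without SAHH-het 3 (limma adjusted p = 0.0712), without SAHH-het+betaine 1 (0.0541) and without SAHH-het+betaine 3 (0.0983).

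Apoc1 (ENSMUSG00000040564, protein-coding, chromosome 7, 19689481 to 19692660, minus strand), an apolipoprotein gene next to Apoe on the same strand, went with it. It measured 355, 158 and 286 FPKM in SAHH-het, against 21.9, 28.6 and 21.8 FPKM with betaine and 19.1, 22.2 and 18.6 FPKM in SAHH-WT. The groups did not overlap, and the SAHH-het+betaine libraries lay close to those of SAHH-WT. The log2 difference of -3.37 (SE 0.33) did not pass (limma adjusted p = 0.110), and it passed in 5 of 18 alternative fits, for example with TPM rescaling (0.00920). Of 20 tested genes that start within 250 kb of Apoe, Apoc1 included, 17 had lower values, 4 of them with no overlap, and their median log2 difference was -0.17. Tomm40, the next gene beyond Apoe and a part of the mitochondrial import channel, had -0.25. Bcam, a cell adhesion receptor for laminin, had -0.72. Igsf23 (1.33) and Bloc1s3 (0.36) were higher with no overlap. Igsf23 was at most at 0.272 FPKM in SAHH-het and passed the limit of 0.5 FPKM only through SAHH-het+betaine. Its direction follows from that limit and is no result.

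**Figure D2:**
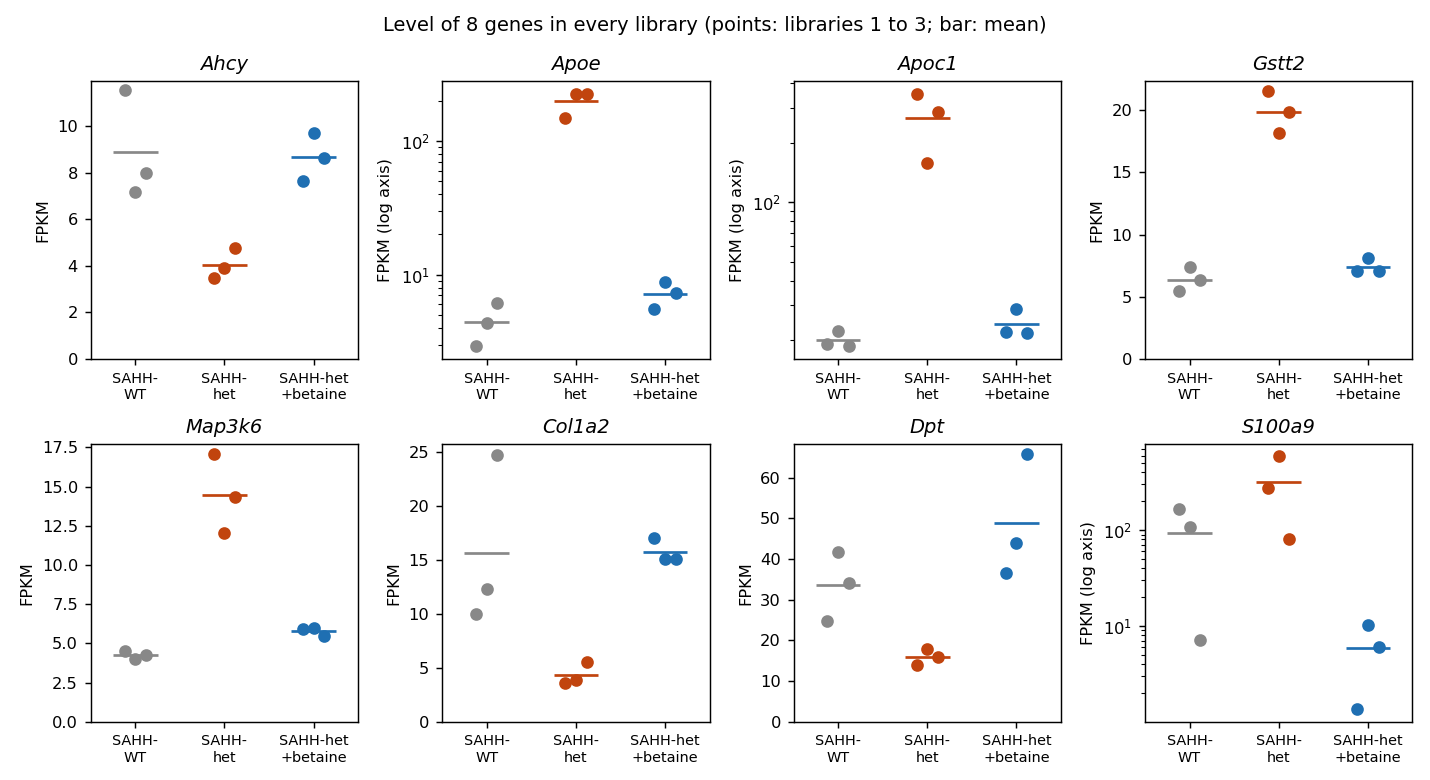
FPKM of 8 genes in each of the 9 libraries (points 1 to 3 from left to right within a group) with the group mean as a bar, on a log axis for Apoe, Apoc1 and S100a9. SAHH-het stands apart from SAHH-het+betaine in all 8 genes, and for every gene but S100a9 it stands apart from SAHH-WT as well.

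The second gene that fell, mt-Tg (ENSMUSG00000064359), encodes the mitochondrial tRNA that carries glycine. It is encoded on the mitochondrial chromosome at positions 9391 to 9458, plus strand. Next to it lies mt-Nd3, which encodes a subunit of respiratory complex I, and beyond that mt-Tr, the tRNA for arginine. Both tRNA sequences are shown because their genes frame the stretch with the largest difference. They come from the GRCm38 transcripts of GENCODE, and capitals mark the anticodon.
mt-Tg, chrM:9391-9458: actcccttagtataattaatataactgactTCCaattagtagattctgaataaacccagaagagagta
mt-Tr, chrM:9808-9875: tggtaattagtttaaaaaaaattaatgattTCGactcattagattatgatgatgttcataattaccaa

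mt-Tg measured 43.6, 24.7 and 25.6 FPKM in SAHH-het, from 26 to 41 fragments per library, and was listed at 0 in all 3 SAHH-het+betaine libraries. In SAHH-WT it was at 2.16 FPKM in library 1 and at 0 in the other two. Set against a floor of 3 fragments per library, it was at least 10.03-fold lower in SAHH-het+betaine (limma adjusted p = 0.00191). It did not pass with limma-voom on the recovered fragments (0.226) or without SAHH-het+betaine 1 (0.0506). The gene has 68 bases, so each fragment adds much to its FPKM, and the value rests on few fragments. mt-Tg passed the limit of 0.5 FPKM only through SAHH-het, so its direction follows from that limit and is no result.

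The neighbours of mt-Tg were lower as well. mt-Tr measured 70.2, 23.0 and 11.8 FPKM in SAHH-het, against 2.61, 2.26 and 1.12 FPKM with betaine (log2 difference -3.51, limma adjusted p = 0.359). mt-Nd3 measured 762, 326 and 360 FPKM in SAHH-het, against 98.1, 167 and 254 FPKM with betaine (log2 difference -1.47, limma adjusted p = 0.538). In both genes the groups did not overlap. mt-Co3, which ends at position 9390 just before mt-Tg and encodes a subunit of cytochrome c oxidase, had -0.71 with overlap, and mt-Nd4l on the other side had 0.76.

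The rest of the mitochondrial chromosome went mostly the other way, though without passing. Of 30 tested genes outside the stretch from mt-Co3 to mt-Tr, 23 had higher and 7 lower values in SAHH-het+betaine, with a median log2 difference of 0.45. This stretch was set apart after its values were seen, so part of the contrast follows from that choice. The lower genes included both rRNA genes, mt-Rnr1 (-0.81) and mt-Rnr2 (-0.67), and the tRNA gene mt-Tt (-2.30), all with overlap. mt-Nd5 was the gene among the 30 whose groups did not overlap, at 2663 to 3544 FPKM in SAHH-het, against 4787 to 6020 FPKM with betaine (limma adjusted p = 0.611). Among the 13 protein-coding genes 8 were higher and 5 lower (median 0.14, from 0.06 without SAHH-het+betaine 2 to 0.47 without SAHH-het+betaine 1, and -0.01 with quantile normalization). Mitochondrial genes took 25.6 to 31.1% of the FPKM sum in SAHH-het and 31.1 to 39.4% in SAHH-het+betaine, and their part in these differences was not tested.

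**Figure D3:**
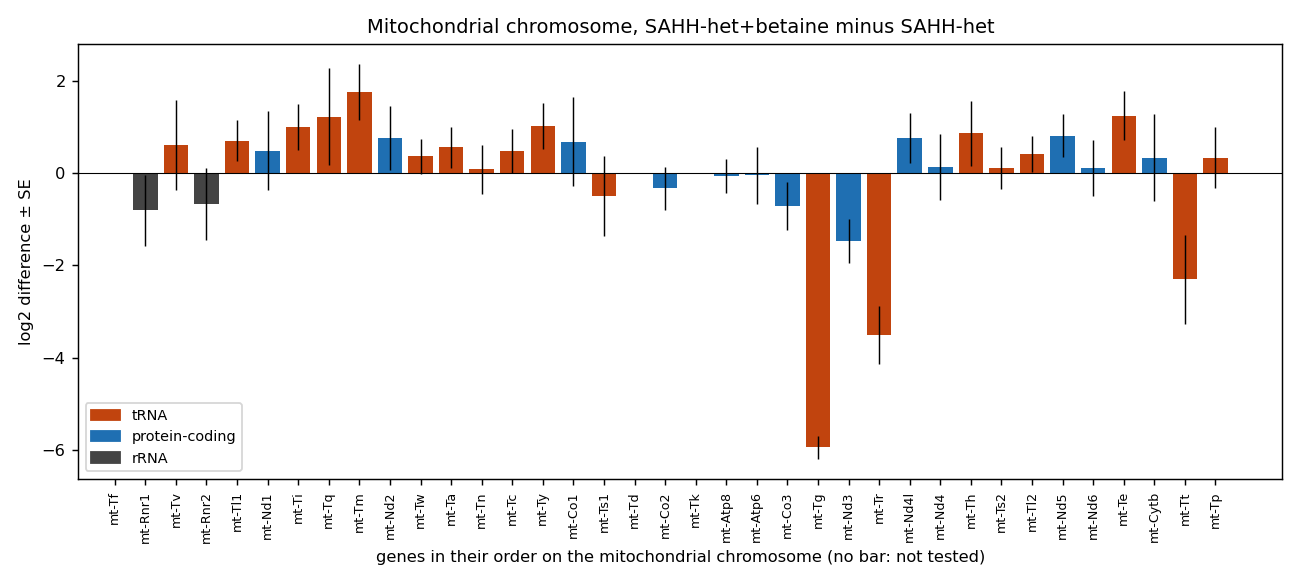
Log2 difference of SAHH-het+betaine minus SAHH-het (bars, with the SE of the limma fit) for the genes of the mitochondrial chromosome in their order along it. The lowest bars are mt-Tg at -5.94 and mt-Tr at -3.51, on either side of mt-Nd3 at -1.47. Away from this stretch, mt-Tt had -2.30 with overlap, lower than mt-Nd3.

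Ighv1-63 (ENSMUSG00000096672, chromosome 12, 115495625 to 115496058, minus strand), a variable segment of immunoglobulin heavy chains, was the gene that rose. It was listed at 0 in all 3 SAHH-het libraries and measured 3.20, 5.91 and 4.35 FPKM in SAHH-het+betaine, from 19 to 27 fragments per library. Against a floor of 3 fragments per library it was at least 8.06-fold higher (limma adjusted p = 0.0418). In SAHH-WT it measured 0.140, 24.6 and 0.539 FPKM, so single libraries differed widely within that group. The call was kept in 6 of 12 other settings and in 0 of 6 fits that left out 1 library. A heavy chain segment marks the B cell clones that use it, and variable segments resemble each other closely, so reads can be shared among them. Of 113 heavy chain variable segments 58 passed the limit of 0.5 FPKM, some of them through SAHH-het+betaine 1, so their directions are not counted. The summed level of the segments was 14.5 to 139 FPKM in SAHH-het, against 70.7 to 401 FPKM with betaine, highest in library 1. The light chain segment Igkv1-99 was at 0 in SAHH-het and at 3.46, 1.63 and 2.03 FPKM in SAHH-het+betaine (limma adjusted p = 0.184), at least 4.57-fold higher against the same floor. Ighv1-63 and Igkv1-99 both passed the limit of 0.5 FPKM only through SAHH-het+betaine. Their direction follows from that limit and is no result.

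The next genes by p did not pass, and their values are given as such. In the lower direction they included a pair of cytochrome P450 genes. Cyp1a1, a cytochrome P450 induced through the aryl hydrocarbon receptor, measured 47.9, 25.9 and 32.0 FPKM in SAHH-het, against 7.005, 5.71 and 6.14 FPKM with betaine (log2 difference -2.36, limma adjusted p = 0.131). Cyp2b10, a P450 induced through the receptor CAR in mouse liver, measured 20.5, 8.67 and 33.1 FPKM against 0.252, 1.02 and 0.289 FPKM (log2 difference -4.27, limma adjusted p = 0.180). Neither pair of groups overlapped, although SAHH-WT ranged from 7.87 to 33.0 FPKM for Cyp1a1 and from 0.0464 to 6.39 FPKM for Cyp2b10.

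Gstt2 (ENSMUSG00000033318, chromosome 10, 75831114 to 75837424, minus strand), a glutathione S-transferase, measured 21.5, 18.2 and 19.9 FPKM in SAHH-het, against 7.05, 8.13 and 7.11 FPKM with betaine and 5.45, 7.38 and 6.31 FPKM in SAHH-WT (log2 difference -1.36, limma adjusted p = 0.131). All 3 SAHH-het values lay above the other 6 libraries. Of 13 other tested genes within 250 kb of Gstt2, 8 were lower and 5 higher. Lower with no overlap were its relatives Gstt1 (-0.77) and Gstt3 (-0.40), which detoxify with glutathione, and Ddt (-0.97), which encodes D-dopachrome tautomerase. Higher with no overlap were Vpreb3 (1.64), a gene of B cells, and Zfp280b (0.38), and Mif, a cytokine gene, had -0.47 with overlap. Vpreb3 measured 0.674, 0.130 and 0.0780 FPKM in SAHH-het, with a mean below the limit of 0.5 FPKM. Its direction follows from that limit and is no result.

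Map3k6 (ENSMUSG00000028862), an upstream kinase in stress signalling, measured 17.1, 12.04 and 14.3 FPKM in SAHH-het, against 5.88, 5.99 and 5.47 FPKM with betaine (log2 difference -1.24, limma adjusted p = 0.241). SAHH-WT, at 4.48, 3.98 and 4.27 FPKM, lay below both. Cd164l2, a sialomucin-like gene that lies next to Map3k6 on chromosome 4, measured 3.45, 3.13 and 2.49 FPKM against 0.453, 0.799 and 0.376 FPKM (log2 difference -1.77, limma adjusted p = 0.232). The microRNA gene Mir3076 was at 6.03, 1.87 and 4.47 FPKM in SAHH-het and at 0 in SAHH-het+betaine (limma adjusted p = 0.208), but from 2 to 5 fragments per library, so this difference is at the edge of what the depth shows. It passed the limit of 0.5 FPKM only through SAHH-het, so its direction follows from that limit and is no result.

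In the higher direction, the genes named for the smallest p were Ighv1-63, Igkv1-99, Cytl1, Hr, Hpgd and the matrix genes Col1a2, Col3a1, Col5a2, Lum and Dpt, the last 5 described with their lists. Cytl1, a small secreted protein of cartilage and stromal cells, measured 2.19, 1.59 and 4.06 FPKM in SAHH-het, against 24.0, 21.7 and 16.6 FPKM with betaine (log2 difference 2.83, limma adjusted p = 0.131). Its SAHH-WT values ran from 1.63 to 35.8 FPKM, across the range of both groups. Hr, a nuclear receptor corepressor needed for hair growth and responsive to thyroid hormone, measured 1.17, 1.67 and 1.68 FPKM against 4.71, 4.39 and 4.501 FPKM (log2 difference 1.34, limma adjusted p = 0.232). Hpgd, which breaks down prostaglandins, measured 2.19, 2.73 and 2.59 FPKM against 6.36, 5.66 and 5.08 FPKM (log2 difference 1.05, limma adjusted p = 0.297). For both genes the groups did not overlap.

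**Figure D4:**
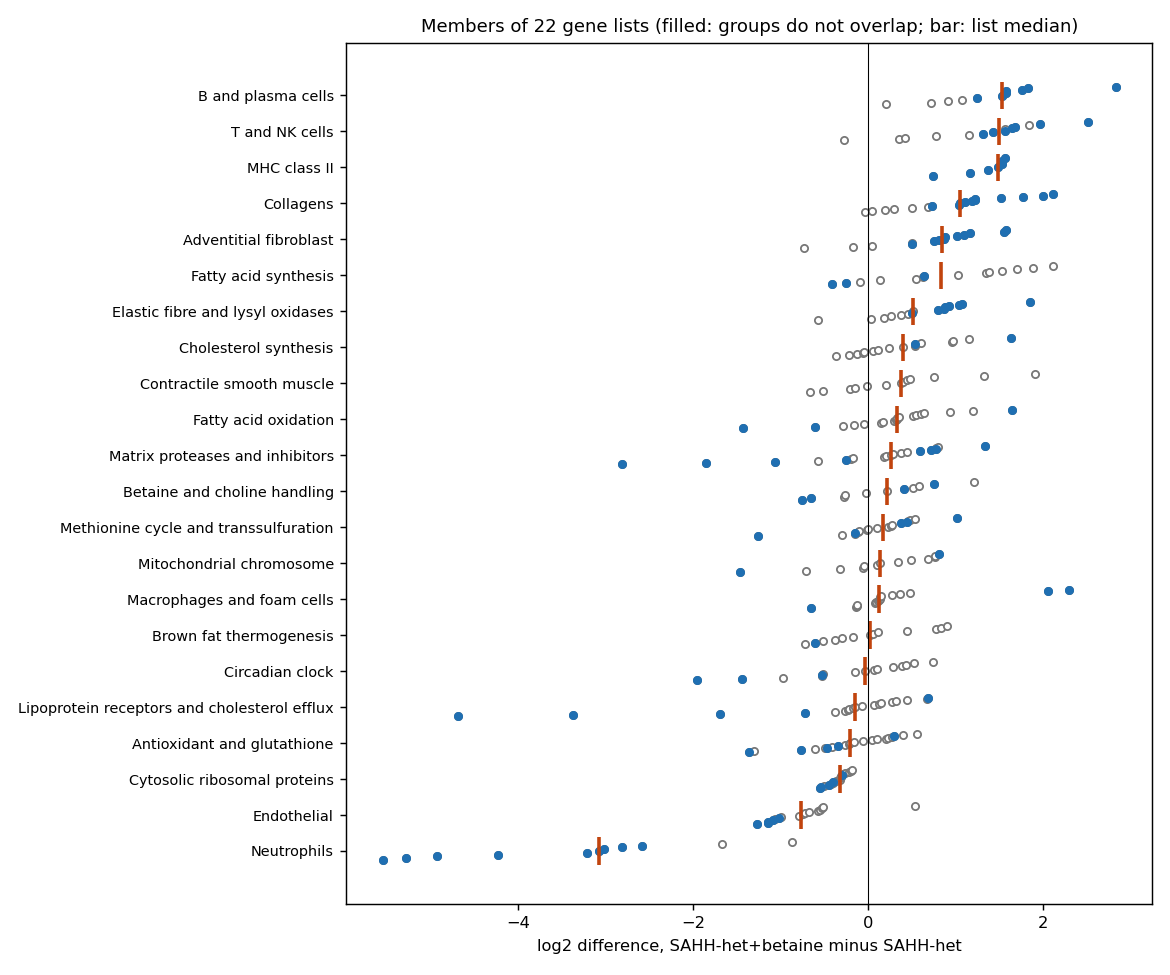
Log2 difference of SAHH-het+betaine minus SAHH-het for each tested member of 22 gene lists, sorted by list median (red bar). Filled points are genes whose groups do not overlap. The medians run from -3.07 for neutrophil genes to 1.53 for B and plasma cell genes. Both of these lists include members that passed the limit of 0.5 FPKM only through the group where they were high. The direction of such members follows from that limit.

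Collagens gave one of the most even lists. Fibrillar collagens are the load-bearing fibres of the vessel wall, made mainly by fibroblasts and by smooth muscle cells in disease. Of 17 collagen genes 16 had higher values in SAHH-het+betaine and 1 lower, 11 of them with no overlap (all higher), with a median log2 difference of 1.05, against -0.01 over all genes. None passed by limma. In bulk tissue, more cells of a type and more RNA per cell cannot be told apart, here and for every list below.

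Col1a2 (ENSMUSG00000029661, chromosome 6, 4504814 to 4541544, plus strand), a chain of collagen I, measured 3.61, 3.86 and 5.54 FPKM in SAHH-het, against 17.1, 15.1 and 15.1 FPKM with betaine (log2 difference 1.77, SE 0.20, limma adjusted p = 0.131). SAHH-WT lay at 9.98, 12.4 and 24.7 FPKM. The other chain of this collagen, Col1a1, measured 2.71, 5.80 and 8.43 FPKM against 23.3, 22.1 and 20.7 FPKM (log2 difference 1.99, limma adjusted p = 0.359). The groups did not overlap for either chain.

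Col3a1, the collagen of elastic vessels, measured 5.23, 7.57 and 12.4 FPKM in SAHH-het, against 38.6, 33.2 and 35.5 FPKM with betaine (log2 difference 2.11, limma adjusted p = 0.241). Col5a2, which lies next to it on chromosome 1 and starts collagen fibrils, measured 1.47, 1.78 and 2.07 FPKM against 5.21, 4.33 and 4.45 FPKM (log2 difference 1.19, limma adjusted p = 0.286). Col5a1 had 1.05, and the beaded-filament chains Col6a1, Col6a2 and Col6a3 had 1.11, 1.22 and 1.03. The basement membrane collagens, which have the highest levels of the list, did not share this. Col4a1 had 0.19 and Col4a2 had -0.04, both with SAHH-het 2 far above the other libraries, at 137 and 109 FPKM, and both changed sign in other fits.

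The promoter of Col1a2 is printed as the collagen gene with the smallest p. It covers 250 bases before to 50 after the start of the gene in RefSeq (GRCm38.p6, plus strand), with CCAAT on either strand, the box bound by the factor NF-Y, in capitals.
Col1a2, chr6:4505368-4505667: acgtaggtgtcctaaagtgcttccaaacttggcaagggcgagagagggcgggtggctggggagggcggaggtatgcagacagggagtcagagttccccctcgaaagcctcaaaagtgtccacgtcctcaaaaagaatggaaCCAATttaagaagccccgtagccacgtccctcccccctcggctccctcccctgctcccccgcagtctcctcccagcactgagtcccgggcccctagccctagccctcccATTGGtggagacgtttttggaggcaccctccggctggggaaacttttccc
CCAAT or its complement ATTGG occurred in 6 of the 15 promoters of 13 collagen genes (40%), and in 37.4% of all 32851 promoters of the same length. These matches describe letters and not binding.

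Other products of adventitial fibroblasts, the cells of the outer vessel layer, were higher alongside the collagens. Of 14 such genes 12 had higher values in SAHH-het+betaine and 2 lower, 10 with no overlap (all higher), with a median of 0.84. The lowest member had -0.73. The list summed to 888, 1293 and 822 FPKM in SAHH-het, against 983, 1121 and 1116 FPKM with betaine, so the sums overlapped. Lum, a proteoglycan that orders collagen fibrils, measured 6.35, 4.23 and 7.58 FPKM in SAHH-het, against 23.0, 16.3 and 16.8 FPKM with betaine (log2 difference 1.57, limma adjusted p = 0.297). Dpt, a matrix protein that binds decorin, measured 14.0, 17.9 and 15.9 FPKM against 36.6, 44.0 and 65.8 FPKM (log2 difference 1.55, limma adjusted p = 0.297). Gsn, an actin-severing protein, had 0.75, and Lpl, the lipase that is also a fat cell gene, had -0.18. The receptor gene Pdgfra, a defining marker of fibroblasts, was at 1.41 to 2.04 FPKM in SAHH-het, against 3.08 to 3.82 FPKM with betaine. The part of fibroblast content in the collagen values was not tested.

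Elastic fibre genes and lysyl oxidases, which build and cross-link elastin, gave 14 higher and 1 lower of 15, 8 with no overlap (all higher), and a median of 0.51. Loxl2, a cross-linking enzyme, measured 1.02, 1.16 and 0.979 FPKM in SAHH-het, against 2.21, 2.37 and 3.57 FPKM with betaine (log2 difference 1.03, limma adjusted p = 0.431). The microfibril gene Mfap4 had 1.85, elastin itself (Eln) 0.80, and Ltbp4 and Loxl1, the members with the highest levels, 0.51 and 0.45.

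Matrix proteases and their inhibitors were split, 12 higher and 7 lower of 19 (median 0.26, from 0.10 without SAHH-het+betaine 1 to 0.40 without SAHH-het 2). Timp4, an inhibitor of metalloproteinases expressed in heart and vessels, had the smallest p and was lower, at 33.5, 48.5 and 30.1 FPKM in SAHH-het, against 7.28, 10.1 and 12.6 FPKM with betaine (log2 difference -1.85, limma adjusted p = 0.270). Its relative Timp2 was higher (0.60), and so was the stromal protease Mmp19, at 2.27, 4.44 and 6.69 FPKM against 11.6, 10.9 and 10.9 FPKM (1.33). The lysosomal proteases Ctsb and Ctsd, with the highest levels, had 0.28 and 0.18.

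Neutrophil genes were the list with the lowest median. Neutrophils are short-lived granulocytes that carry the calcium-binding alarmins S100a8 and S100a9 and antimicrobial granule proteins. Of 11 tested genes 11 had lower values in SAHH-het+betaine, 9 with no overlap, and the median log2 difference was -3.07. A member whose SAHH-het+betaine mean was below the limit on mean FPKM passed it only through SAHH-het. Its lower value follows from that limit and is no result, and these counts and the median include any such member. This does not apply to S100a9 and S100a8, whose SAHH-het+betaine means were 5.89 and 4.78 FPKM. S100a9 measured 274, 588 and 81.6 FPKM in SAHH-het, against 1.36, 10.3 and 6.00 FPKM with betaine (log2 difference -5.54, SE 0.89, limma adjusted p = 0.297). S100a8 measured 204, 525 and 48.4 FPKM against 1.53, 8.30 and 4.51 FPKM (log2 difference -5.28, limma adjusted p = 0.359). Every SAHH-het library was higher, and the spread within the group was several-fold.

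Retnlg, a resistin-like protein of neutrophils, measured 40.5, 162 and 14.8 FPKM in SAHH-het, against 0.200, 1.17 and 2.57 FPKM with betaine (log2 difference -4.93, limma adjusted p = 0.359). Summed over the list, SAHH-het had 555, 1464 and 161 FPKM, SAHH-het+betaine had 5.66, 24.97 and 14.7 FPKM, and SAHH-WT had 357, 249 and 19.8 FPKM. SAHH-WT 3 was thus as low as the SAHH-het+betaine libraries. Without SAHH-het 2 the median was -2.17. The granule protease gene Elane and the chemokine receptor gene Cxcr2 were the tested members whose groups overlapped, and Mpo was not tested. The part of neutrophil content in other differences was not tested.

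MHC class II genes, with which antigen-presenting cells and B cells show peptides to T cells, were higher throughout. In all 7 genes the SAHH-het+betaine libraries lay above the SAHH-het libraries (median 1.48). H2-Aa measured 35.9, 33.9 and 45.3 FPKM in SAHH-het, against 176, 89.2 and 86.3 FPKM with betaine (log2 difference 1.53, limma adjusted p = 0.409). Cd74, the invariant chain, measured 84.7, 130 and 133 FPKM against 575, 252 and 262 FPKM (1.56), and the class II transactivator Ciita had 1.37. The list summed to 211, 271 and 309 FPKM in SAHH-het, against 1244, 576 and 583 FPKM with betaine, and without the highest library, SAHH-het+betaine 1, the median was 1.14. MHC class I presentation genes did not share the direction, with 1 higher and 9 lower of 10 (median -0.27, from -0.60 without SAHH-het 1 to 0.22 without SAHH-het 2).

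Lymphocyte genes were higher too, but mainly through 1 library. All 12 B and plasma cell genes had higher values in SAHH-het+betaine, 7 with no overlap (median 1.53, from 0.73 without SAHH-het+betaine 1 to 2.01 without SAHH-het+betaine 3). The low-affinity IgE receptor gene Fcer2a measured 0.0936, 0.0724 and 0.0650 FPKM in SAHH-het, against 12.6, 2.71 and 1.14 FPKM with betaine (log2 difference 2.83, limma adjusted p = 0.488). Fcer2a passed the limit of 0.5 FPKM only through SAHH-het+betaine, so its direction follows from that limit and is no result. The same holds for any member whose SAHH-het mean was below the limit. The B cell surface gene Ms4a1 had 1.57, the heavy chain gene Ighm 1.07 and the light chain gene Igkc 0.20. Ighd, the heavy chain of naive B cells, measured 1.75, 1.38 and 1.38 FPKM against 58.7, 10.2 and 6.43 FPKM (log2 difference 3.04, limma adjusted p = 0.472). Igkv3-4 and Igkj4, segments of the light chain, were highest in the same library, at 38.8 and 59.2 FPKM, with log2 differences of 3.76 and 3.08. The list summed to 558, 642 and 618 FPKM in SAHH-het, against 2596, 505 and 446 FPKM with betaine. Its most abundant member, Igkc, made up most of that sum and was at 1814 FPKM in SAHH-het+betaine 1 and below every SAHH-het library in the other two.

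Of 16 T and NK cell genes 14 passed the limit of 0.5 FPKM, and of these 13 were higher and 1 lower, 7 with no overlap (median 1.49, from 0.63 without SAHH-het+betaine 1 to 2.04 without SAHH-het+betaine 3). A member whose SAHH-het mean was below this limit passed only through SAHH-het+betaine. Its direction follows from the limit and is no result. Trac, the constant part of the T cell receptor, measured 0.696, 1.14 and 0.788 FPKM in SAHH-het, against 29.5, 3.86 and 3.02 FPKM with betaine (log2 difference 2.505, limma adjusted p = 0.538). Cd3g, a part of the same receptor complex, had 1.64 and the adhesion receptor Cd2 had 0.78. The list summed to 9.15, 14.9 and 9.29 FPKM in SAHH-het, against 129, 25.2 and 13.8 FPKM with betaine. SAHH-WT ranged from 12.4 to 129 FPKM. The part of lymphocyte content in other differences was not tested.

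Macrophage genes were mixed, with 12 higher and 4 lower of 16 (median 0.12, from -0.06 without SAHH-het 1 to 0.54 without SAHH-het 2). The complement genes of resident macrophages, C1qa and C1qb, had 0.07 and 0.13. Gpnmb and Spp1, which mark lipid-laden foam cells, were higher with no overlap. Gpnmb measured 0.322, 1.20 and 0.278 FPKM in SAHH-het, against 3.31, 5.17 and 3.06 FPKM with betaine (log2 difference 2.05, limma adjusted p = 0.359). Spp1, osteopontin, measured 1.76, 1.87 and 0.325 FPKM against 9.26, 17.2 and 2.501 FPKM (2.29). Trem2 and Cd68, also foam cell genes, had 0.09 and 0.13 with overlap.

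**Figure D5:**
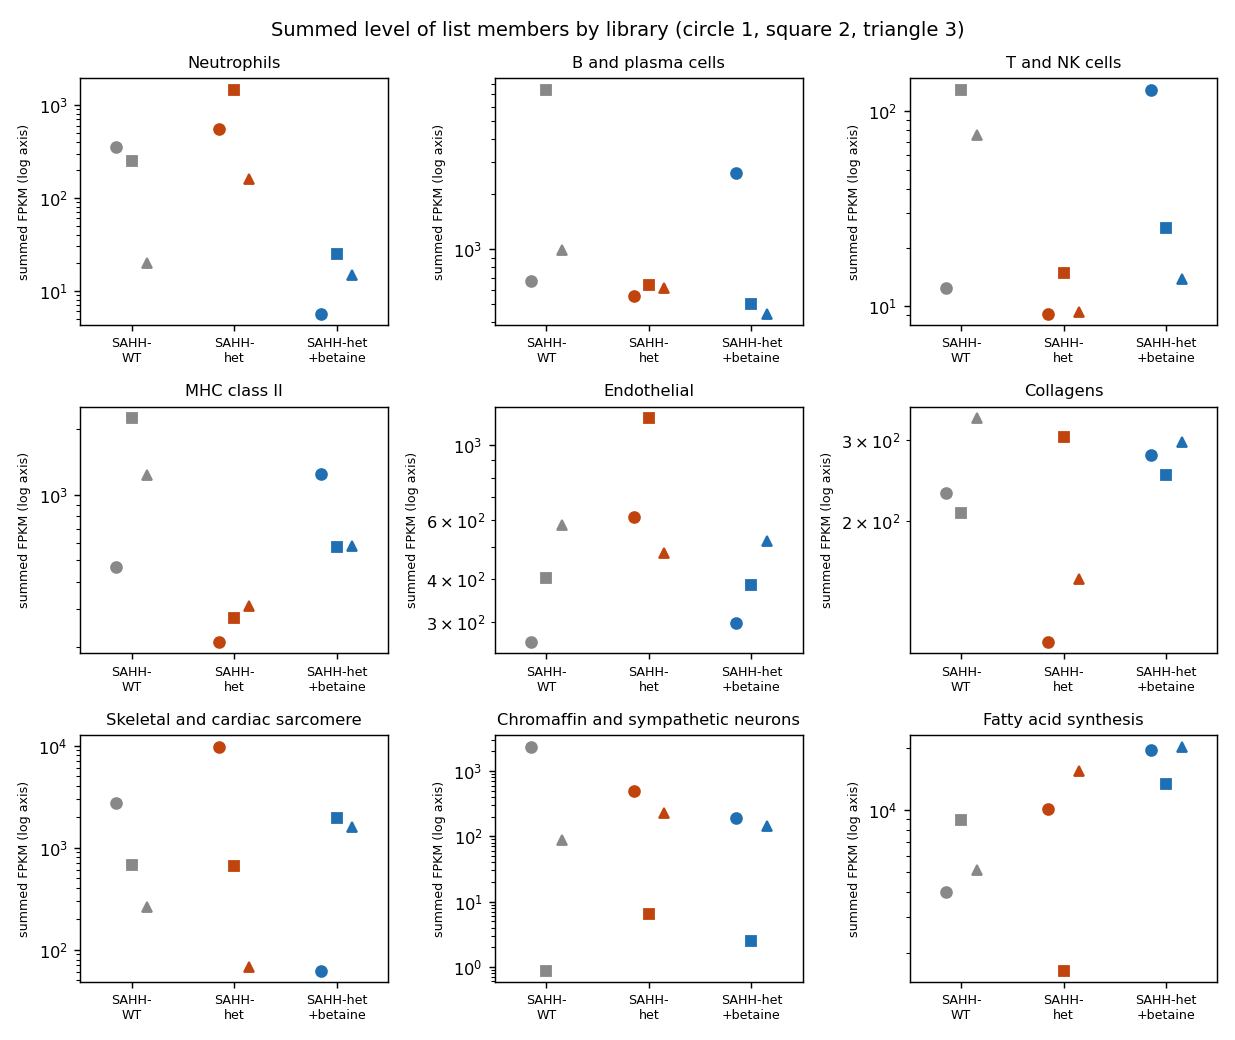
Summed FPKM of the members of 9 gene lists in each library (log axes, one marker shape per replicate number). Neutrophil genes are lower in all 3 SAHH-het+betaine libraries than in SAHH-het, and MHC class II genes are higher in all 3. Among the 6 libraries compared, the B and T cell sums are highest in SAHH-het+betaine 1 and the sarcomere sum in SAHH-het 1.

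Endothelial genes were lower as a list. Of 16 genes 15 had lower values in SAHH-het+betaine and 1 higher, 5 with no overlap (all lower), with a median of -0.77 (from -1.05 without SAHH-het 3 to -0.36 without SAHH-het 2). Sox17, a transcription factor of arterial endothelium, measured 8.17, 12.1 and 5.97 FPKM in SAHH-het, against 2.71, 3.27 and 4.83 FPKM with betaine (log2 difference -1.15, limma adjusted p = 0.531). Cdh5, which joins endothelial cells, had -0.72, the junction protein Esam -1.14 and Eng, a receptor of the TGF-beta family, -1.07. Vwf, the clotting factor carrier, was the exception at 0.53. Gpihbp1, which holds lipoprotein lipase on the capillary wall, measured 101, 193 and 71.0 FPKM against 27.7, 30.8 and 46.2 FPKM (-1.70, limma adjusted p = 0.471). Genes of endothelial adhesion and coagulation gave 7 higher and 6 lower of 13 (median 0.16, from -0.14 without SAHH-het 3 to 0.37 without SAHH-het 2).

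Contractile smooth muscle genes, the defining genes of the media, gave 8 higher and 5 lower of 13 with 0 out of overlap (median 0.37, from 0.12 without SAHH-het 3 to 0.61 without SAHH-het 2). Acta2, smooth muscle actin, measured 59.5, 103 and 37.8 FPKM in SAHH-het, against 163, 105 and 65.1 FPKM with betaine (log2 difference 0.75, limma adjusted p = 0.642). Actg2 and Cnn1 had 1.90 and 1.32. Tpm2, shared with skeletal muscle and highest in SAHH-het 1 at 851 FPKM, had -0.21.

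The lipoprotein list held Apoe and Apoc1 and was otherwise split, 8 higher and 11 lower of 19 (median -0.15, from -0.23 without SAHH-het 1 to 0.01 without SAHH-het 2), with Apoe the member that passed. Cd36, the fatty acid and oxidised lipoprotein receptor, and Lpl, with the highest levels, had -0.07 and -0.18. Mylip, which degrades lipoprotein receptors, had -0.73 and the cholesterol exporter Abca1 0.68, both with no overlap.

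Fatty acid synthesis genes gave 11 higher and 3 lower of 14 (median 0.83, from 0.23 without SAHH-het 2 to 1.35 without SAHH-het 3). Scd1, the desaturase that makes oleate, measured 4658, 435 and 7478 FPKM in SAHH-het, against 12338, 7366 and 13254 FPKM with betaine (log2 difference 2.10, limma adjusted p = 0.601). Fasn, fatty acid synthase, measured 1729, 138 and 2522 FPKM against 2480, 2407 and 2417 FPKM (1.53). The low value in both genes was SAHH-het 2. Elovl5, which lengthens polyunsaturated fatty acids, was higher with no overlap (0.64), and the desaturase Scd2 had 1.70. Lower with no overlap were Mlxipl (-0.42), a carbohydrate-sensing transcription factor of lipid synthesis, and Dgat1 (-0.26), which makes triglycerides.

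Cholesterol synthesis genes gave 12 higher and 5 lower of 17 (median 0.39, from 0.06 without SAHH-het 2 to 0.65 without SAHH-het 3). Idi1, of the isoprenoid step, measured 1.09, 1.37 and 5.16 FPKM against 10.8, 6.14 and 6.25 FPKM (log2 difference 1.63, limma adjusted p = 0.538). Hmgcs1, at the pathway's start, and Insig1, which restrains it, had 0.54 and 1.15, and Pmvk had 0.24. Fatty acid oxidation genes gave 14 higher and 5 lower of 19 (median 0.33, from -0.09 without SAHH-het 2 to 0.68 without SAHH-het 3). Pdk4, the kinase that switches off glucose oxidation in fasting, measured 184, 126 and 251 FPKM in SAHH-het, against 537, 569 and 581 FPKM with betaine (log2 difference 1.64, limma adjusted p = 0.359). Etfb, an electron carrier, went the other way at 288, 153 and 142 FPKM against 45.9, 74.2 and 91.7 FPKM (-1.43), while the abundant enzymes Acadl and Acaa2 had 0.33 and -0.17.

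Fat cell genes themselves were near the background. Brown fat genes gave 7 higher and 6 lower of 13 (median 0.01, from -0.26 without SAHH-het 2 to 0.10 without SAHH-het+betaine 1, and -0.06 with TPM rescaling), with Ucp1 at 0.83, Cox8b at -0.73, Otop1, a proton channel, at 0.78 and Cpt1b, which brings fatty acids into mitochondria, at -0.61. White fat genes gave 11 higher and 3 lower of 14 with 0 out of overlap (median 0.11, from -0.03 without SAHH-het 1 to 0.22 without SAHH-het 3).

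In the pathway that the genotype and the treatment address no tested gene passed by limma, Ahcy included. Of 18 tested genes of the methionine cycle and transsulfuration 10 were higher and 8 lower, 3 higher and 2 lower with no overlap (median 0.16, from 0.02 without SAHH-het+betaine 2 to 0.33 without SAHH-het+betaine 3). Gnmt, a methyltransferase that uses up S-adenosylmethionine by methylating glycine, measured 4.86, 2.78 and 3.11 FPKM in SAHH-het, against 1.52, 1.02 and 1.01 FPKM with betaine (log2 difference -1.26, limma adjusted p = 0.399). SAHH-WT had 1.67, 1.29 and 4.45 FPKM, across both groups. Amd1 and Mtap, of polyamine synthesis and of the salvage of its by-product, had 0.44 and 0.37 with no overlap. Ahcyl1, an Ahcy relative, had 0.48 and Mat2a, which makes S-adenosylmethionine outside the liver, -0.15. Bhmt, Cbs and Mat1a, enzymes that are abundant in liver, were below the limit of 0.5 FPKM and were not tested.

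Among 11 tested genes of betaine and choline handling 6 were higher and 5 lower (median 0.22, from 0.06 without SAHH-het 2 to 0.38 without SAHH-het 3). Chdh, the mitochondrial enzyme that makes betaine from choline, measured 3.20, 3.71 and 10.5 FPKM in SAHH-het, against 12.1, 15.002 and 10.4 FPKM with betaine (log2 difference 1.21, limma adjusted p = 0.551). The choline transporter Slc44a1 (0.41) and Pcyt1a (0.76), of phosphatidylcholine synthesis, were higher with no overlap. The choline kinase Chka was lower with no overlap, at 2.71, 2.83 and 1.53 FPKM against 1.35, 1.21 and 0.921 FPKM (-0.76). Chpt1 and Cept1, which finish phosphatidylcholine, had 0.58 and -0.27.

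Lists of one-carbon and methylation genes held no gene that passed by limma. Of 14 tested folate genes, which carry one-carbon units, 5 were higher and 9 lower (median -0.02, from -0.06 without SAHH-het+betaine 1 to 0.08 without SAHH-het+betaine 2), with 0 under an unadjusted p of 0.05. DNA and histone methylation enzymes gave 13 higher and 16 lower of 29 (median -0.01, from -0.15 without SAHH-het 1 to 0.11 without SAHH-het 2, and 0.01 with quantile normalization). The RNA m6A machinery gave 13 higher and 2 lower of 15 (median 0.08, from 0.05 without SAHH-het 1 to 0.15 without SAHH-het 2), and arginine methyltransferases with their DDAH partners 3 higher and 8 lower of 11 (median -0.09, from -0.21 without SAHH-het+betaine 3 to 0.02 without SAHH-het 1).

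Of 15 clock genes 7 had higher and 8 lower values (median -0.04, from -0.39 without SAHH-het 2 to 0.16 without SAHH-het+betaine 3, and 0.04 with quantile normalization), and 3, all lower, did not overlap. Per1 and Per2 shut off the activator pair Clock and Arntl in a daily rhythm, and both are also induced by glucocorticoids. Per1 measured 12.9, 11.7 and 9.53 FPKM in SAHH-het, against 4.22, 4.39 and 3.04 FPKM with betaine (log2 difference -1.44, limma adjusted p = 0.241). Per2 measured 13.7, 6.83 and 7.22 FPKM against 2.64, 1.71 and 1.46 FPKM (-1.96, limma adjusted p = 0.297). The repressor Cry1, the remaining gene with no overlap, had -0.53. Nr1d1, which encodes a further repressor of the clock, and the output gene Tef, the members with the highest levels, had 0.52 and -0.52 with overlap. No source used here gives the time of day at which tissue was taken.

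The Per1 promoter is shown with matches to the E-box, the motif that the activator pair binds (RefSeq, GRCm38.p6, plus strand, 250 bases before to 50 after the start). Capitals mark the E-box CACGTG, which reads the same on both strands.
Per1, chr11:69098699-69098998: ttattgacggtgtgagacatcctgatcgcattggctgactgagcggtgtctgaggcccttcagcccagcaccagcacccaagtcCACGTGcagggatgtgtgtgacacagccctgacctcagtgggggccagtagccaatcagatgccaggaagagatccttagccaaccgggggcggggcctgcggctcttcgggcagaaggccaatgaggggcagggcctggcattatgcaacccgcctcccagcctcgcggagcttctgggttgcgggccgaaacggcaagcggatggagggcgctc
CACGTG occurred in 5 of the 18 promoters of 13 clock genes (27.8%) and in 7.15% of all promoters. A match is a description of the letters only.

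Antioxidant and glutathione genes gave 8 higher and 13 lower of 21 (median -0.21, from -0.37 without SAHH-het+betaine 3 to -0.09 without SAHH-het+betaine 1). Beside Gstt2 and Gstt1, the plasma peroxidase gene Gpx3 had -1.31 and measured 1185, 1510 and 1398 FPKM in SAHH-het, against 394, 1210 and 345 FPKM with betaine. SAHH-het+betaine 2 overlapped the SAHH-het range. Gpx4, the peroxidase of membrane lipids, had -0.23. Cytosolic ribosomal protein genes were lower in 18 of 18, 5 with no overlap, with a median of -0.33 (from -0.52 without SAHH-het 3 to -0.22 without SAHH-het 2). Rps18 measured 161, 188 and 118 FPKM against 106, 108 and 101 FPKM (log2 difference -0.54, limma adjusted p = 0.576), Rps19 had -0.45 and the stalk proteins Rplp1 and Rplp0 had -0.55 and -0.31.

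The remaining lists are given by their counts of higher and lower genes. Inflammatory chemokines and cytokines gave 9 and 10 (median -0.05, from -0.30 without SAHH-het 3 to 0.28 without SAHH-het 2), interferon-stimulated genes 6 and 12 (-0.09, from -0.51 without SAHH-het 3 to 0.55 without SAHH-het 2), and complement 10 and 5 (0.13, from -0.02 without SAHH-het 1 to 0.42 without SAHH-het 2). Osteochondrogenic genes gave 4 and 3 (0.26, from 0.07 without SAHH-het+betaine 3 to 0.58 without SAHH-het+betaine 1). The nuclear-encoded respiratory chain gave 8 and 12 (-0.10, from -0.52 without SAHH-het 2 to 0.19 without SAHH-het+betaine 1, and 0.03 with quantile normalization), and mitochondrial fission, fusion and mitophagy 6 and 7 (-0.05, from -0.15 without SAHH-het+betaine 2 to 0.18 without SAHH-het 1, and 0.01 with quantile normalization). Cell cycle genes gave 13 and 2 (0.34, from -0.03 without SAHH-het+betaine 1 to 0.59 without SAHH-het+betaine 2) and senescence and p53 genes 8 and 6 (0.14, from -0.06 without SAHH-het 3 to 0.23 without SAHH-het 2). The unfolded protein and integrated stress response gave 8 and 10 (-0.06, from -0.08 without SAHH-het+betaine 2 to 0.07 without SAHH-het+betaine 1, and 0.002 with quantile normalization), heat shock chaperones 2 and 12 (-0.25, from -0.39 without SAHH-het+betaine 3 to -0.08 without SAHH-het 1) and immediate early genes 6 and 9 (-0.12, from -0.36 without SAHH-het 3 to 0.08 without SAHH-het 2).

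Lists of tissues that a dissection could include were low or uneven between libraries. Sarcomere genes gave 6 higher and 10 lower (median -0.26, from -2.14 without SAHH-het 3 to 1.65 without SAHH-het 1, and 0.05 with limma-voom). Chromaffin and sympathetic neuron genes gave 1 and 6 (-0.99, from -2.61 without SAHH-het 2 to 0.49 without SAHH-het+betaine 2). Their sums were 491, 6.51 and 229 FPKM in SAHH-het, against 193, 2.45 and 145 FPKM with betaine. Library 2 was the lowest of each group, in SAHH-WT too at 0.877 FPKM. Schwann cell genes gave 6 and 1 (0.31, from -0.04 without SAHH-het 2 to 0.54 without SAHH-het 1), mast cell genes 6 and 0 (1.05, from 0.52 without SAHH-het 1 to 1.73 without SAHH-het 3), lymphatic endothelial genes 3 and 2 (0.37, from 0.04 without SAHH-het 1 to 0.56 without SAHH-het 2) and mesothelial genes 1 and 5 (-0.25, from -0.62 without SAHH-het 1 to 0.05 without SAHH-het 3). Adrenal cortex genes summed to 2.90 to 5.52 FPKM and liver genes to 1.04 to 2.07 FPKM in the 6 libraries, and SAHH-WT 1 had 9873 FPKM of adrenal genes. The 2 adrenal genes tested had lower values (median -0.26, from -0.45 without SAHH-het+betaine 2 to -0.12 without SAHH-het 3). The part of these tissues in the differences was not tested.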

How the data were processed

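RNA-seq libraries from vascular tissue gave 1 deposited table of FPKM values per gene, made by the authors. HISAT2 2.0.5 and mm10 are named in the submitters' processing notes, and DESeq2 1.20.0 is named in the study's design text. The sources used here do not name the counting tool. Column names gave each library's group. The gene table matched 54495 of 54532 genes to the GRCm38 annotation. FPKM values were compared as log2(FPKM + 0.5) with limma 3.58.1 in R 4.3.3 over the 6 libraries, with Benjamini-Hochberg adjustment over all 15304 genes whose mean was at least 0.5 FPKM. A difference on this scale understates the change of low genes. FPKM steps gave whole fragments (within 0.1) for 97.3 to 97.6% of the values checked, and these fragments entered an alternative fit with limma-voom. Intervals are 95% intervals of the limma fit, and floors of 3 fragments cover counting error only. The fit was tested on simulated data. No overlap means that all 3 values of one group exceed all 3 of the other. Replicate numbers were not used to pair the libraries in the main fit.

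Named genes were those passing, up to 10 per direction by smallest p and 5 per direction by size (among annotated genes whose groups did not overlap and whose mean reached 1 FPKM), with list members picked by smallest p and highest level. A few genes outside this rule, such as mt-Co3, mt-Tr, Amd1, Mtap, Slc44a1, Pcyt1a, Gpihbp1, Mylip, Cry1, Cpt1b, Mlxipl, Dgat1, Pdgfra and the neighbours of Apoe and Gstt2, were chosen after their values were seen, as were the immunoglobulin segments and the glucocorticoid group. All members and lists were chosen with earlier results of these data known.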

Additional observations from a re-analysis of the deposited data

How the results depend on the processing

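Of the 3 calls, mt-Tg passed in 16 of 18 alternative fits, Apoe in 15 and Ighv1-63 in 6. The number of genes called higher was 0, against 1, with a pseudocount of 1, with the filter at 1 FPKM, with no filter, with all 9 libraries in the fit, with limma-voom and in every fit that left out 1 library (0 to 0). The number called lower, 2, was 5 with sample weights, 1 with limma-voom and 0 to 3 with 1 library left out. At an unadjusted p under 0.05 TPM rescaling gave 305 higher genes against 624. With 1 library left out, 752 to 1958 genes were under that p, 338 to 909 higher and 393 to 1049 lower, 3308 to 4936 genes had no overlap against 2524 (with fewer libraries no overlap is met more easily, so this rise follows from the construction), and the log2 difference of Apoe was -4.88 to -4.52. Same-numbered libraries had deviations correlated at -0.35, 0.08 and -0.13, and differently numbered libraries at -0.26 to 0.39. Whether libraries of the same number share a batch was not tested. With the replicate as a block 0 genes were called higher and 2 lower, and 412 were higher at the unadjusted p.

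Genes near 0 changed sign, and the cause was not tested. C1qa had -0.013 with TPM rescaling. With quantile normalization Col4a2 had 0.0064, Cd36 0.075, Acaa2 0.034, mt-Cytb -0.091 and Gpx4 0.032. With sample weights Tpm2 had 0.62, Col4a2 0.27, Igkc -0.27, Pmvk -0.26 and Cd36 0.12, and with limma-voom Col4a2 had 0.0093. With 1 library left out Tpm2 ran from -1.83 to 1.49, Col4a1 from -0.23 to 0.82, Col4a2 from -0.34 to 0.46, C1qa from -0.18 to 0.47, C1qb from -0.087 to 0.45, Acaa2 from -0.65 to 0.14, Gpx4 from -0.58 to 0.049, Pmvk from -0.37 to 0.65, Cd36 from -0.25 to 0.13, Acadl from -0.17 to 0.69 and Igkc from -0.67 to 0.65. With 3 libraries a group, low genes such as mt-Tg, Ighv1-63 and Mir3076 rest on few fragments.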

Other observations

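Genes induced by glucocorticoids, put together after values of some of them were seen, gave 5 higher and 10 lower of 15 in SAHH-het+betaine, 1 higher and 4 lower with no overlap (median log2 difference -0.34). Fkbp5, a co-chaperone that restrains the glucocorticoid receptor, measured 9.22, 7.77 and 11.2 FPKM in SAHH-het, against 3.33, 1.79 and 1.33 FPKM with betaine (log2 difference -1.96, limma adjusted p = 0.297). The groups did not overlap. Tsc22d3, a mediator of glucocorticoid action in immune cells, had -0.75 and Ddit4, an inhibitor of mTORC1, -0.34, while Pdk4 had 1.64. Of 103 variable segments of immunoglobulin light chains 71 passed the limit of 0.5 FPKM, some of them through SAHH-het+betaine 1, so their directions are not counted. The summed level of the segments was highest in SAHH-WT 2 at 2847 FPKM, and ran from 96.8 to 299 FPKM in SAHH-het and 195 to 913 FPKM with betaine.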
